A study of Mus musculus with 10 samples.

Results

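Translation initiation and elongation factors were followed in mouse platelets as the 67 rows, of 23420 gene rows in the count table, whose symbols begin with Eif1 to Eif6 or with Eef1 or Eef2. Pseudogene symbols containing -ps were to be left out, and 0 rows carried one. The rows comprised 41 initiation factors, 8 elongation factors (eIF5A and eIF5A2 among them), 4 regulators of the cap-binding protein eIF4E, 5 kinases of eIF2 or eEF2 and 8 other genes that share the naming. 1 further row, Eif1a, had no role assigned in advance and so stands outside the counts and sums by role. The 8 others included 4 rows with older names of the argonaute genes, Eif2c1 to Eif2c4.

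Platelets were sorted from the blood of adult mice into 2 fractions, with and without the red fluorescent reporter Tomato, and each fraction was sequenced as 5 libraries from polyadenylated RNA. The labels state neither the strain, nor the promoter behind Tomato, nor whether replicates came from separate mice, so p-values describe variation among libraries that could be technical. Total counts per library ran from 5.41 to 16.2 M (1 M is 1e+06 counts) and the number of genes with a count from 807 to 2450. Replicates 1, 2 and 5 of Tomato- were the 3 libraries with fewer than 1000 detected genes. Levels are given as CPM, counts per 1e+06 counts of the library, and the sequenced fragments carried no molecular identifiers. All 8 platelet markers had counts in every library, with a summed level of 42401 to 58025 CPM in Tomato+ and 43474 to 56526 CPM in Tomato- libraries. Of the markers of other cells, B cell genes had 0 counts, T and NK cell genes had counts in Tomato- replicate 4 alone, and neutrophil genes in Tomato+ replicate 3 alone. Of the monocyte markers, Lyz2, the lysozyme gene, had 6256 to 8692 CPM in Tomato+ and 5881 to 9029 CPM in Tomato- libraries, above the level of every translation factor, and the others in the table had 0 counts; the part of such RNA in the results was not tested. Endothelial markers, some of which platelets share, summed to 230 to 1501 CPM in Tomato+ and 130 to 1725 CPM in Tomato- libraries.

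Translation of a capped mRNA begins when eIF4E, the scaffold eIF4G and the helicase eIF4A bind the cap and recruit a small ribosomal subunit that carries eIF3, eIF1, eIF1A and the initiator tRNA on eIF2. After the start codon is found, eEF1A delivers each aminoacyl-tRNA, eEF2 moves the ribosome along, and eIF5A helps it through difficult stretches. The 4E-binding proteins hold eIF4E away from eIF4G until the kinase mTORC1 phosphorylates them. Platelets have no nucleus and inherit their mRNA, ribosomes and translation factors from megakaryocytes.

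Eif4ebp1 and Eif5a are shown first at the sites by which their proteins act, beside the paralogs to which the counts had to be told apart. The stretches come from the GENCODE M21 transcripts on GRCm38, written as coding strand. In the 4E-binding proteins the capitals mark the codons of the motif that grips eIF4E (residues 53 to 59 of Eif4ebp1 and 54 to 60 of Eif4ebp2), in exon 2 of 3 of each gene. The whole printed stretches lie at chr8:27273328-27273366 on the plus strand (Eif4ebp1) and at chr10:61435060-61435098 on the minus strand (Eif4ebp2). In the eIF5A genes they mark the codon of the lysine at residue 50 that is turned into hypusine. Their whole printed stretches lie at chr11:69919151-69919183 on the minus strand (Eif5a, exon 3 of 7) and at chr3:28782184-28782216 on the plus strand (Eif5a2, exon 2 of 5).
Eif4ebp1: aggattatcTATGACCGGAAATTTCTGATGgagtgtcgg
Eif4ebp2: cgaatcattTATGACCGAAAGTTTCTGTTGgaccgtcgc
Eif5a: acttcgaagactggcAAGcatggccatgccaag
Eif5a2: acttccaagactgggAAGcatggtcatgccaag

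Over the whole coding sequence, Eif4ebp1 and Eif4ebp2 were identical in 65.5% of aligned columns with a longest identical run of 14 bases, and Eif5a and Eif5a2 in 72.7%, also with a run of 14 bases. Eif1 and Eif1b were identical in 81.3% with a run of 25 bases, Eef1a1 and Eef1a2 in 80.3% with a run of 23 bases, and Eif4a1 and Eif4a2 in 77.8% with a run of 20 bases. The X- and Y-linked genes Eif2s3x and Eif2s3y were identical in 86.3%, with a run of 34 bases. No source used here states how reads with several alignments were counted, so levels of Eef1a1, Eif1 and Eif5a, whose processed copies are many in the genome, are uncertain.

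Elongation factor mRNAs are known for a 5′ terminal oligopyrimidine tract, a C followed by pyrimidines at the cap through which mTORC1 controls their translation. The start regions of 4 genes are printed to show what the annotation holds there, from 10 bases before to 20 bases from the RefSeq start (GRCm38.p6). Capitals mark each C followed by at least 4 C or T bases. Eef1a1 lies at chr9:78481705-78481734 (minus strand), Eef2 at chr10:81176621-81176650 (plus), Eif3f at chr7:108934405-108934434 (plus) and Eif1 at chr11:100319939-100319968 (plus).
Eef1a1: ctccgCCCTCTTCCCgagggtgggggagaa
Eef2: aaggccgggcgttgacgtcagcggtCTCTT
Eif3f: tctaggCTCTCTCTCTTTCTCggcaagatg
Eif1: ggcgtcacaggggcggctatataagtgaat

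Eif3f had the longest of these runs, at 15 bases, Eef1a1 had 10 bases, Eef2 had 5 at the edge of the window, and Eif1 had none. Of the 67 rows, 49 had an entry in the promoter table; Eif4ebp1, Eif3h and Eif4g2 were among those without one. Such a run stood in at least 1 start window of 2 of 6 elongation factors (33.3%), 12 of 33 initiation factors (36.4%) and 39.6% of all 27025 genes in the table. The same kind of run read on the opposite strand stood in 66.7%, 48.5% and 44.5% of the same genes. On the strand of the gene it is written as at least 4 A or G bases followed by a G. The share in elongation factors was thus not above that of all genes, with 6 genes to go by. Runs were counted anywhere in the window and at any start of a gene, so these shares do not measure tracts at the cap.

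About as many translation factors were found as were missed. A count in at least 1 library was found for 34 of 67 rows (50.7%, against 20.03% of all gene rows), in at least 7 libraries for 6 rows, and in every library for 2 rows, Eif1 and Eef1a1 (2.99%, against 1.13% of all gene rows). By role, counts were found for 7 of 8 elongation factors, 5 of 5 factors of start site selection and scanning, 7 of 11 of the eIF4F group and 6 of 14 subunits of eIF3. They were also found for 3 of 11 of the eIF2 group (eIF2, its exchange factor eIF2B, Eif2a and Eif2d), 3 of 4 eIF4E regulators and 1 of 5 kinases. The remaining 33 rows were at 0 throughout. By counting error, a level of up to 0.185 to 0.554 CPM (3 counts, depending on the library) could go unseen, a limit that does not cover loss of a transcript before sequencing.

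**Figure D1:**
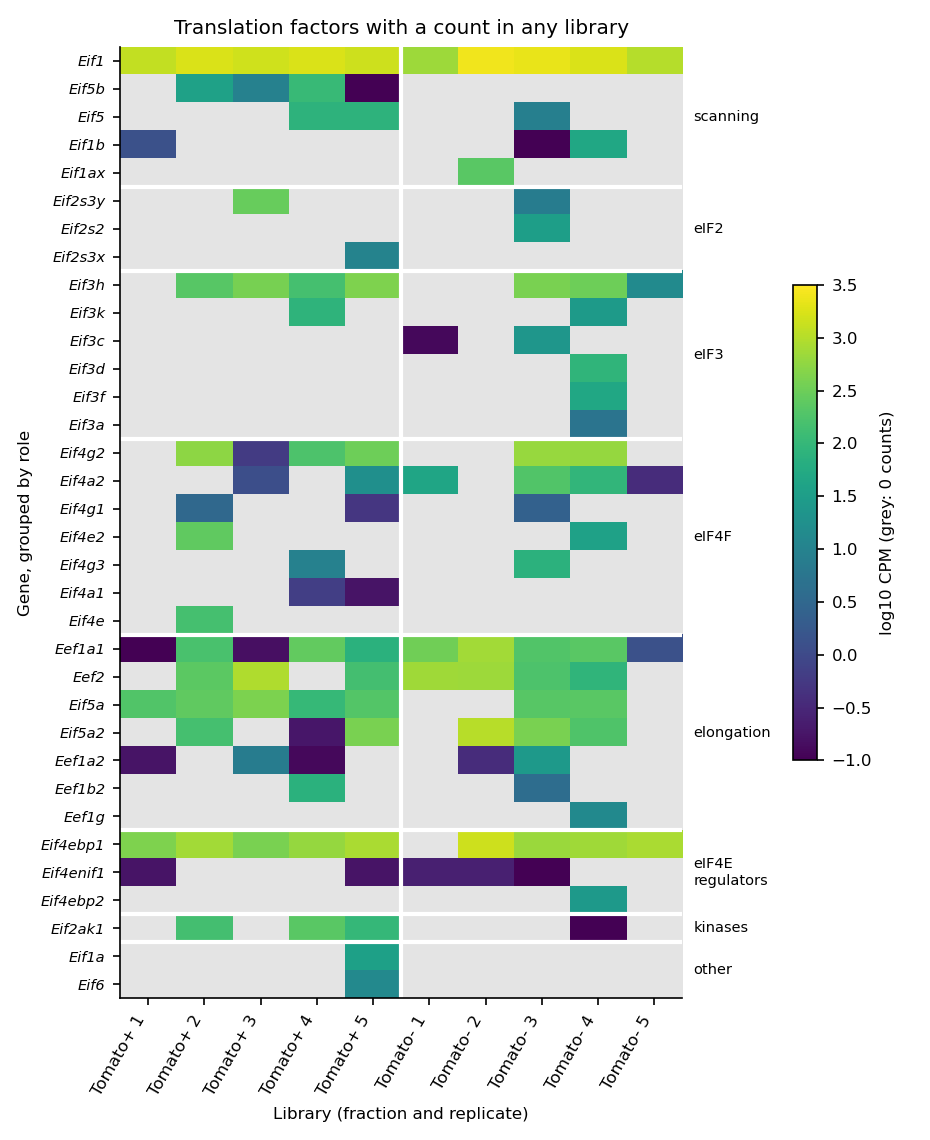
Heatmap of the log10 CPM of the 34 translation factor genes with a count in any library (rows, grouped by role) in 5 Tomato+ and 5 Tomato- libraries (columns); grey cells had 0 counts. Eif1 is filled across all 10 columns and Eif4ebp1 across 9, while 11 genes are coloured in 1 column each.

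Rows with 0 counts included 1 complete complex and large parts of others. All 5 eIF2B subunits (Eif2b1 to Eif2b5), which recharge eIF2 with GTP, had 0 counts, as did Eif2s1, the eIF2 subunit whose phosphorylation halts initiation. Of eIF3, the large scaffold on the small ribosomal subunit, Eif3b, Eif3e, Eif3g, Eif3i, Eif3j1, Eif3j2, Eif3l and Eif3m had 0 counts. Eif4b and Eif4h, which stimulate the eIF4A helicase, the nucleotide exchange factor subunit Eef1d, the regulator Eif4ebp3 and the eEF2 kinase Eef2k also had 0 counts.

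Detection followed the library. Tomato+ replicates 1 to 5 held 7, 13, 11, 15 and 18 translation factors with a count. Tomato- replicates 1 to 5 held 6, 8, 19, 18 and 5, and the ranges of the fractions overlapped. The mean was 12.8 ± 4.15 in Tomato+ and 11.2 ± 6.76 in Tomato- (SD, n = 5 each). The 3 Tomato- libraries with fewer than 1000 detected genes held 5, 6 and 8, so that the Tomato- mean without them, over replicates 3 and 4 alone, was 18.5. After every library was thinned to the smallest total of counts, the means were 12 and 10.8.

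**Figure D2:**
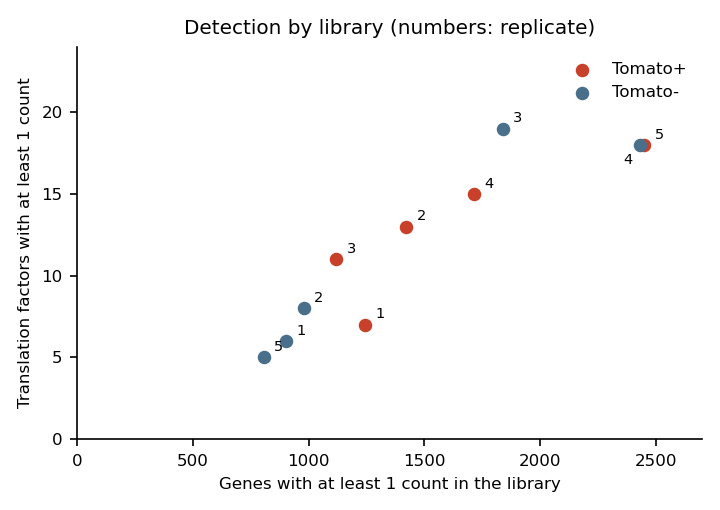
Number of translation factors with at least 1 count (y axis) against number of all genes with at least 1 count (x axis), 1 point per library, coloured by fraction and numbered by replicate. Tomato- replicates 1, 2 and 5 lie at the lower left with 5 to 8 factors, and the 4 libraries with 1713 genes or more hold 15 to 19.

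Within the detected values, 21 of 120 were below 10 counts (17.5%, against 16.6% over all genes). Of the 34 detected genes, 20 had counts in both fractions, 6 in Tomato+ alone and 8 in Tomato- alone. Of those found in 1 fraction alone, 4 and 7 rested on 1 library. Counts in 1 library alone were held by 11 of the 34 detected factors and by 2008 of 4692 detected genes of the whole table. The share found in 1 fraction alone was not computed over all genes, so these numbers are not read as a trait of translation factors. Tomato- replicate 4 alone held Eif3a, Eif3d, Eif3f, Eef1g and Eif4ebp2. The same library had the highest summed level of red cell markers, 3440 CPM, including Alas2, which had counts in no other library; the other 9 libraries had 1.38 to 696 CPM of the haemoglobin row Beta-s, and the part of red cell RNA in these detections was not tested. In a bulk sample, fewer cells of a type and less RNA per cell cannot be told apart.

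Eif1, which keeps the scanning ribosome from starting at wrong codons, was the most abundant translation factor. It had 1222, 1755, 1467, 1738 and 1441 CPM in Tomato+ replicates 1 to 5. In Tomato- it had 681, 2544, 2228, 1791 and 1007 CPM. All Tomato+ values lay inside the wider Tomato- range. The means were 1525 ± 224 and 1650 ± 791 CPM (SD, n = 5 each), which placed Eif1 (chromosome 11, 100319885 to 100322096, plus strand, GRCm38) 92nd among all genes by mean CPM.

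The other scanning factors were sparse. Eif5b, the GTPase that joins the ribosomal subunits, had 37.8, 9.38, 107 and 0.0872 CPM in Tomato+ replicates 2 to 5 and 0 counts in replicate 1 and in all 5 Tomato- libraries. Eif5, which triggers GTP hydrolysis on eIF2, had 82.8 and 82.5 CPM in Tomato+ replicates 4 and 5 and 8.61 CPM in Tomato- replicate 3. Eif1ax had 221 CPM in Tomato- replicate 2 and 0 counts elsewhere. Eif1b, the close relative of Eif1, had 47.5 CPM in Tomato- replicate 4, 1.28 CPM in Tomato+ replicate 1 and 1 count in Tomato- replicate 3, so 7 libraries with Eif1 counts had none of it.

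Among eIF3 subunits, Eif3h stood apart from the rest. It had 0, 216, 378, 148 and 419 CPM in Tomato+ replicates 1 to 5 and 0, 0, 398, 324 and 14.2 CPM in Tomato-. Counts were missing or low in the 3 Tomato- libraries with few detected genes and missing in Tomato+ replicate 1, and elsewhere the fractions overlapped. Eif3k had 83.2 CPM in Tomato+ replicate 4 and 28.7 CPM in Tomato- replicate 4, and Eif3d had 87.0 CPM and Eif3f 47.8 CPM in Tomato- replicate 4 alone. Eif3c had 23.4 CPM in Tomato- replicate 3 and 1 count in replicate 1.

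In the eIF4F group, Eif4g2, the eIF4G relative that lacks the eIF4E-binding part and serves cap-independent initiation, led by CPM. It had 0, 547, 0.615, 173 and 320 CPM in Tomato+ replicates 1 to 5 and 0, 0, 651, 619 and 0 CPM in Tomato-. Its scaffold relatives were lower: Eif4g1 reached 3.29 CPM and Eif4g3 reached 78.3 CPM, each with counts in at most 3 libraries. The helicase gene Eif4a2 had 0, 0, 1.23, 0 and 17.3 CPM in Tomato+ and 45.0, 0, 187, 92.3 and 0.370 CPM in Tomato-, and Eif4a1 did not exceed 0.680 CPM. Eif4a2 was thus above 40 CPM in 3 Tomato- libraries and in no Tomato+ library, although both fractions held libraries with 0 counts. The cap-binding protein gene Eif4e had 151 CPM in Tomato+ replicate 2 and 0 counts in the other 9 libraries. Its relative Eif4e2, which binds the cap without driving initiation, had 248 CPM in the same library and 37.9 CPM in Tomato- replicate 4.

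In the group of eIF2, the carrier of the initiator tRNA, and of eIF2B, 3 of 11 genes had counts, in 1 or 2 libraries each. The group also held Eif2a and Eif2d, which are not subunits of either complex and had 0 counts. The gamma subunit gene on the Y chromosome, Eif2s3y, had 280 CPM in Tomato+ replicate 3 and 7.76 CPM in Tomato- replicate 3. Its X-linked partner Eif2s3x had 10.1 CPM in Tomato+ replicate 5, and Eif2s2 had 33.97 CPM in Tomato- replicate 3. Of 3 other Y-linked genes, Ddx3y and Kdm5d had 0 counts and Uty had 8.34 CPM in Tomato+ replicate 4; the labels do not state the sex of the mice.

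Elongation factors were detected more broadly but unevenly. Eef1a1 had 0.0855, 164, 0.154, 265 and 75.1 CPM in Tomato+ replicates 1 to 5 and 339, 754, 193, 224 and 1.29 CPM in Tomato-. Its counts in every library thus include values of 1 count in Tomato+ replicates 1 and 3 and 7 counts in Tomato- replicate 5. Eef2 had 0, 230, 905, 0 and 145 CPM in Tomato+ and 718, 681, 175, 87.1 and 0 CPM in Tomato-. Each gene was above 50 CPM in 3 Tomato+ and 4 Tomato- libraries, which were the same 4 libraries in Tomato-, and the fractions overlapped. Of the exchange factor subunits that reload eEF1A, Eef1b2 had 74.5 CPM in Tomato+ replicate 4 and 4.07 CPM in Tomato- replicate 3, and Eef1g had 13.4 CPM in Tomato- replicate 4. Eef1a2, the muscle and neuron form of eEF1A, had counts in 5 libraries and at most 26.8 CPM.

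Eif5a had 189, 247, 412, 105 and 195 CPM in Tomato+ replicates 1 to 5. In Tomato- it had 0, 0, 211, 227 and 0 CPM, where the zeros are the 3 libraries with fewer than 1000 detected genes and the other 2 lay within the Tomato+ range. The paralog Eif5a2, whose hypusine site is printed above, had 0, 152, 0, 0.185 and 401 CPM in Tomato+ and 0, 1036, 399, 182 and 0 CPM in Tomato-. In Tomato- replicate 2, Eif5a2 had its highest level while Eif5a had 0 counts.

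Of the eIF4E regulators, Eif4ebp1 (chromosome 8, 27260329 to 27276674, plus strand) was second to Eif1 in abundance. It had 418, 763, 401, 613 and 847 CPM in Tomato+ replicates 1 to 5. In Tomato- it had 0, 1452, 661, 712 and 833 CPM, so that 1 library lacked it and the other 4 overlapped the Tomato+ range. The means were 608 ± 200 and 731 ± 517 CPM (SD, n = 5 each). Eif4ebp2 had 26.8 CPM in Tomato- replicate 4 and 0 counts elsewhere, and Eif4ebp3 had 0 counts. The eIF4E transporter gene Eif4enif1 had 1 or 2 counts in 5 libraries. Eif4ebp1 thus had counts in 8 libraries in which Eif4e had 0 counts.

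The kinases that phosphorylate eIF2 were represented by Eif2ak1, the haem-regulated kinase known from red cell precursors. It had 0, 145, 0, 226 and 98.7 CPM in Tomato+ replicates 1 to 5, and in Tomato- 1 count (0.0944 CPM) in replicate 4 and 0 counts in the others. The fractions overlapped through the 2 Tomato+ libraries with 0 counts. Eif2ak2, Eif2ak3 and Eif2ak4 had 0 counts. In the 3 libraries with Eif2ak1 above 90 CPM, Tomato+ replicates 2, 4 and 5, the level of Beta-s was 178, 59.6 and 338 CPM, and it was 3257 CPM in Tomato- replicate 4; the part of red cell RNA was not tested. Among the other genes that share the naming, Eif6, which keeps ribosomal subunits apart, had 13.2 CPM in Tomato+ replicate 5 and 0 counts elsewhere.

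Roles were compared per length, as CPM per kb of merged exons in GENCODE M21, which listed 63 of the 67 rows. By mean over 10 libraries the order was Eif1 (757 ± 263), Eif4ebp1 (305 ± 171), Eif3h (118 ± 111), Eef2 (88.5 ± 103), Eef1a1 (80.9 ± 91.4), Eif5a (66.7 ± 56.1), Eif5a2 (43.2 ± 65.6) and Eif4g2 (22.7 ± 27.5 CPM per kb, SD). Eif1 was the highest factor per kb in 10 of 10 libraries and Eif4ebp1 the second in 8 of 10. From Eif3h downwards neighbours in this order differed by less than their SD between libraries.

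Summed per kb, initiation factors had 939 ± 358, eIF4E regulators 306 ± 171 and elongation factors 285 ± 198 CPM per kb (SD over 10 libraries). Initiation factors were above elongation factors in 9 of 10 libraries, the exception being Tomato- replicate 1 with 333 and 352 CPM per kb. This order rested on Eif1. With Eif1 left aside, a comparison chosen after the values were seen, the initiation factors summed to 183 ± 156 CPM per kb and were above elongation factors in 4 of 10 libraries. The regulators, in effect Eif4ebp1 alone, were above the summed elongation factors in 6 of 10 libraries.

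On the CPM scale, initiation factors had 2190 ± 625 in Tomato+ and 2242 ± 1290 in Tomato-, elongation factors 714 ± 429 and 1054 ± 897, and eIF4E regulators 608 ± 200 and 737 ± 517 CPM in sum (mean ± SD, n = 5 each). Each of these differences was smaller than the SD of either fraction. With TMM scaling the order turned for initiation factors (2412 and 2188 CPM in Tomato+ and Tomato-) and eIF4E regulators (671 and 664 CPM). Without the 3 Tomato- libraries with few detected genes, replicates 3 and 4 alone remained, with 3619 and 3081 CPM of initiation factors (mean 3350 CPM). That mean exceeded the Tomato+ mean by more than the Tomato+ SD. The cutoff, however, removed libraries from Tomato- alone, while Tomato+ replicate 1 stayed in with 1223 CPM, so this gap is not read as a difference between fractions. Elongation factors without Eif5a and Eif5a2 summed to 373 and 643 CPM. For the full elongation group, leaving out Tomato- replicate 2 gave a Tomato- mean of 700.0 CPM, below that of Tomato+. All 67 rows together took 0.183 to 0.466% of counts in Tomato+ and 0.178 to 0.669% in Tomato- libraries.

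**Figure D3:**
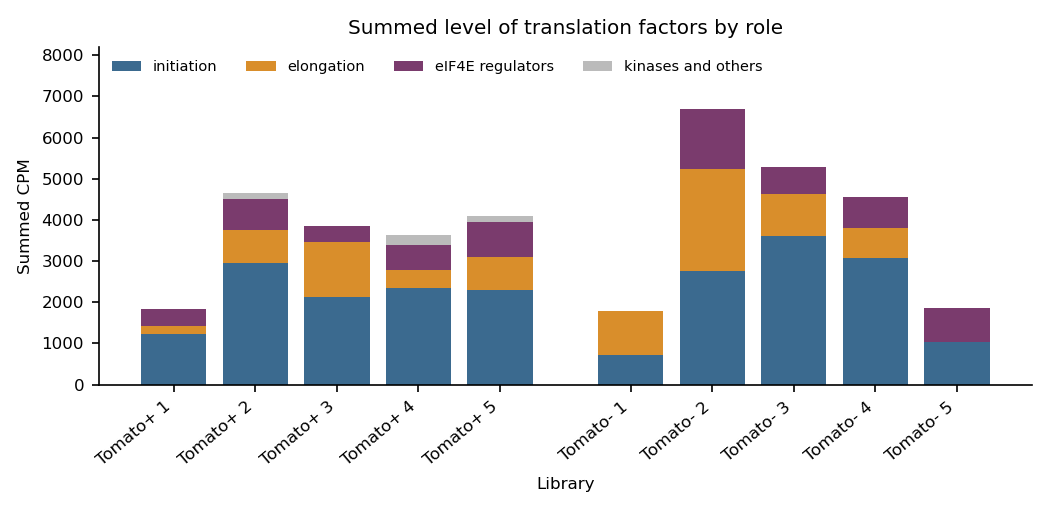
Stacked bars of the summed CPM of initiation factors, elongation factors, eIF4E regulators and the remaining rows in each library (x axis). Tomato+ replicate 1 and Tomato- replicates 1 and 5 stand between 1783 and 1856 CPM, and the other 7 libraries between 3626 and 6689 CPM.

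The makeup differed most in the libraries with the lowest sums. In Tomato- replicate 5, Eif1 and Eif4ebp1 took 99.1% of all translation factor counts (95% Wilson interval 98.9 to 99.3%, counting error only) and elongation factors had 1.29 CPM. In Tomato+ replicate 1 both genes took 89.6%, and the elongation factors had 190 CPM, nearly all of it Eif5a. In Tomato- replicate 1, which had 0 counts of Eif4ebp1, Eif1 took 38.2% and elongation factors had 1056 CPM, from Eef2 and Eef1a1. In the other 7 libraries Eif1 and Eif4ebp1 took 48.4 to 64.8%.

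The test between fractions compared Tomato+ with Tomato- libraries gene by gene. It was fitted with edgeR on all genes that passed its filter on low counts, 1016 genes, and called 0 of them (0%) at a Benjamini-Hochberg adjusted p under 0.05. 9 of the 67 translation factors entered the test and none passed (adjusted p = 0.9996 for each, n = 5 per group). Before adjustment, 9 genes and 0 translation factors had a p under 0.05. With this spread between libraries the test misses most changes, large ones included, so the lack of calls does not show that levels were alike. The groups did not overlap for 0 of the 9, against 0.492% of tested genes with all Tomato+ libraries higher and 0.0984% with all Tomato+ libraries lower.

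**Figure D4:**
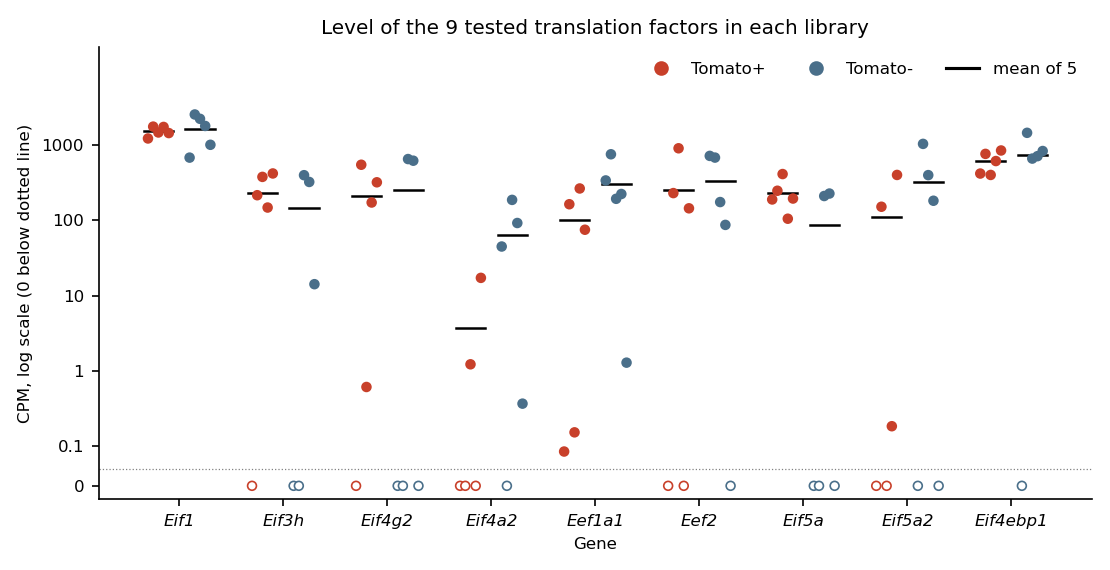
CPM (log scale) of the 9 tested translation factors in each Tomato+ and Tomato- library; open points below the dotted line are libraries with 0 counts, and black bars are means of 5 libraries. Eif1 spans 681 to 2544 CPM, while 7 of the other 8 genes have open points in at least 1 library, and Eef1a1 has points near 0.1 CPM.

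The 9 estimates scattered around 0, with 4 of 9 above 0 and a median log2 fold change (Tomato+ over Tomato-) of -0.01, beside 0.21 over all tested genes. Eif1 was measured most closely, at 0.10 (SE 0.45, 95% interval -0.86 to 1.07). Eif4ebp1 had 0.03 (SE 1.31, interval -2.75 to 2.80). For Eef1a1 the estimate was -1.23 (SE 2.13); leaving out Tomato- replicate 2 gave -0.80 and leaving out Tomato+ replicate 4 gave -1.98. For Eif5a it was 1.37 (SE 2.39), and 2.13 or 2.34 without Tomato- replicate 3 or 4. For Eif4a2 it was -4.01 (SE 2.92, interval -10.21 to 2.20), and -7.42 without Tomato+ replicate 5. These widths leave differences of several fold in either direction inside the interval for every factor but Eif1. With scaling by total counts the estimates of Eif1 and Eif4ebp1 turned to -0.12 and -0.27, and the median over all tested genes was -0.03. Without the 3 Tomato- libraries with few detected genes the estimate of Eif5a was 0.17 and that of Eif3h turned from 0.69 to -0.48.

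**Figure D5:**
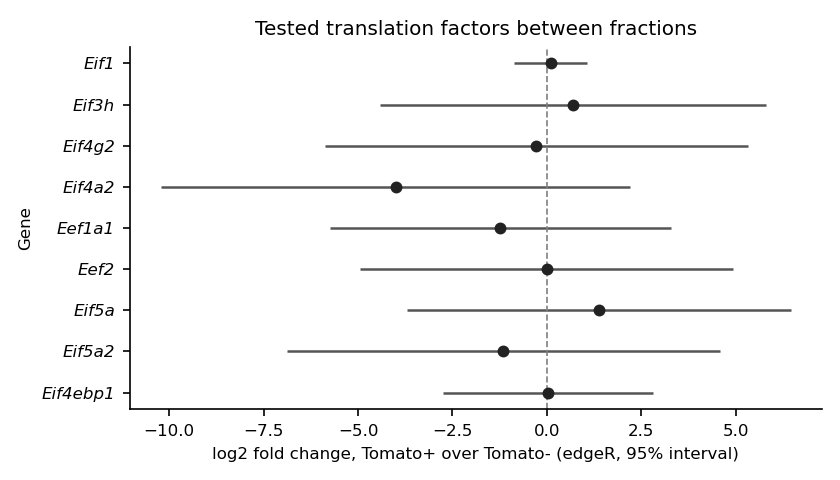
Log2 fold change, Tomato+ over Tomato-, with a 95% interval derived from the edgeR F statistic (x axis) for the 9 tested translation factors (y axis). Every interval includes 0; that of Eif1 runs from -0.86 to 1.07 and that of Eif4a2 from -10.21 to 2.20.

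DESeq2, run as an alternative on the same counts, called 217 of 2020 genes (10.7%), of which 181 had 0 counts in 1 fraction. Among 14 translation factors it tested, it called 2, both higher in Tomato+: Eif2ak1 (adjusted p = 0.000260) and Eif5b (adjusted p = 0.00174). The share of 2 in 14 is near that of all genes. Both lie below the filter of the edgeR test. In edgeR without that filter their adjusted p was 0.128, the smallest value over all 4692 genes of that fit. Factors found in 1 library, Eif4ebp2 among them, had the same value. In that fit 1764 genes had an unadjusted p under 0.05, so 0.128 does not single out these 2 genes. Without the 3 libraries with few detected genes, Tomato- replicates 3 and 4 alone remained in Tomato-. The edgeR adjusted p of Eif2ak1 and Eif5b was then 0.985.

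Partners in the same pathway were read from lists of genes that are not translation factors by name. Of 6 genes that bind the poly(A) tail or its binding protein, 4 had counts and 2 were tested, with 0 higher and 0 lower. Paip2, which displaces the poly(A)-binding protein and so represses translation, averaged 1646 ± 613 CPM in Tomato+ against 1504 ± 435 CPM in Tomato- (SD, n = 5 each). Its log2 fold change was 0.33 (SE 0.44), with an edgeR adjusted p of 0.9996. Pabpc1, the poly(A)-binding protein itself, spanned 105 to 288 CPM in Tomato+ against 71.0 to 778 CPM in Tomato-. Paip2 thus had a level close to that of Eif1 in counts, and both genes were found in all 10 libraries.

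The other lists were thin. Of 15 genes of mTORC1 and cap signalling, 9 had counts and 0 were tested: Mknk1, a kinase of eIF4E, had 141 and 476 CPM in Tomato+ replicates 1 and 3 and 0 counts elsewhere, and Akt1s1, an mTORC1 inhibitor, had 172 CPM in Tomato+ replicate 1 and 32.4 CPM in Tomato- replicate 4. Of 7 genes of the integrated stress response, 6 of them in the table, 2 had counts and 1 was tested without a call. That gene, Atf4, whose translation rises when eIF2 is phosphorylated, had 0.615 to 442 CPM in Tomato+ and 0 to 781 CPM in Tomato-, and Ddit3 had 34.6 and 61.0 CPM in 1 library of each fraction. Of 8 genes of termination, recycling and reinitiation, Mcts1 had 43.5 CPM in Tomato+ replicate 5 and Gspt1 had 3 counts in Tomato- replicate 3. Of 9 mitochondrial translation factors, Mrrf had 119 CPM in Tomato- replicate 4 and 1 count in another library, and Gfm2 had 4.02 CPM in Tomato+ replicate 2.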

How the data were processed

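Platelets were sorted and complementary DNA was made with Smart-seq+ and Nextera XT, per the labels' protocols. For each of the 10 libraries the authors deposited unnormalized counts by gene. Trimmomatic, FastQC, STAR, featureCounts and mm10 are named in the submitters' processing notes; no source used here states annotation, strand setting or handling of multiple alignments. Titles gave group and replicate. The library numbers in the titles ran through all Tomato+ libraries and then all Tomato- libraries, so number order and fraction cannot be told apart. All 45 pairs of libraries differed by more than sampling noise. CPM used totals of all rows.

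The test was edgeR's quasi-likelihood F test (version 4.0.16, R 4.3.3; TMM scaling, robust, default filter with minimum count 10 and total 15, group alone), with Benjamini-Hochberg adjustment over all genes tested. On simulated data with the spread of each gene in these libraries, it missed nearly all changes of small and moderate size and most of the largest ones simulated. Its lack of calls therefore does not show that the fractions are alike. It made no false calls there, which says little for a test that calls so few genes. Loss of many genes at once in a library, as seen here, was not simulated. The SE of an edgeR estimate was its absolute log2 fold change divided by the square root of F. Its interval used t quantiles on that SE, so both are approximations and not output of the test. DESeq2 1.42.0 and limma 3.58.1 voom were alternatives. Lengths, coordinates and coding sequences came from GENCODE M21 (GRCm38); start windows from RefSeq. Members and lists were chosen with earlier results of these data known. Values per library were given for factors past the filter, for the leading 3 per role and for 12 set genes, and from each pathway list the 2 most abundant genes were named; Eif1a (by name alone), Eif1b, Eif3c, Eif4g1, Eif4g3, Eif4a1, Eef1b2, Eef1g, Eef1a2 and the factors found in 1 library or in none, as well as Ddx3y, Kdm5d and Uty, were named after their values were seen.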

Additional observations from a re-analysis of the deposited data

Results flagged for a closer look

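Levels of the 9 tested factors and 3 pathway genes, sums by role and 3 library measures were examined as 38 sets of 5 libraries. In 2 sets a library lay far from the other 4, as judged by Dixon's ratio of gap to range above 0.71. For normally distributed values chance gives about 1 in 20, and 2 in 38 is near that rate. CPM values with many zeros are not normally distributed, so the rate by chance is not known here. Eef2 had 905 CPM in Tomato+ replicate 3, a gap of 0.746 of the range, and the Tomato+ mean was 93.7 CPM without it in place of 256 CPM. Eif4a2 had 17.3 CPM in Tomato+ replicate 5, a gap of 0.929 of the range, with a Tomato+ mean of 0.307 CPM without it in place of 3.70 CPM.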

How the results depend on the processing

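The count of 0 translation factors past the threshold was also 0 in 17 of 18 other settings, including each of the 10 fits without 1 library (0 to 0 calls, for translation factors and for all genes). DESeq2 called 2 of them and 217 genes in all, and limma voom called 1 gene and 0 translation factors. The sign of 5 of 9 estimates turned under some setting; the cause was not tested. Log2 fold changes of Eif1 were -0.12 with total counts, -0.027 with DESeq2 size factors, -0.021 with 10 counts in every library, -0.020 in DESeq2, -0.35 without the 3 libraries with few detected genes and -0.072 to 0.26 without single libraries. Those of Eif4ebp1 were -0.27, -0.19, -0.19 (DESeq2), -0.13 without the 3 libraries and -0.34 to 0.28. Eef2 had 0.20 without the filter, 1.23 without the 3 libraries and -1.42 to 0.51 without single libraries. Eif3h had -0.48 without the 3 libraries. Eif4g2 had 2.89 in voom, 1.39 with the replicate block and -0.97 to 0.55 without single libraries. The other estimates kept their sign in these settings but moved without single libraries: Eef1a1 from -1.98 to -0.80, Eif4a2 from -7.42 to -3.11, Eif5a from 1.02 to 2.34 and Eif5a2 from -2.76 to -0.32; Eif3h, which turned as given, moved from 0.46 to 1.58. In voom and with the replicate block, Eif5a had 7.03 and 10.77, Eef1a1 -3.47 and -2.42, and Eif4a2 -4.61 and -7.02. In the same settings Eif4ebp1 had 2.48 and 0.56, Eef2 -2.87 and -1.41, and Eif3h 3.08 and 2.26.

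With the replicate number as a block edgeR called 0 genes. Same-numbered libraries did not deviate together (correlations -0.11 to 0.12, own number highest for 2 of 5). Correlations this low cannot show whether same-numbered libraries came from the same mice, and the labels do not state it. Without single libraries, detected factors averaged 11.5 to 14.3 in Tomato+ and 9.25 to 12.8 in Tomato-, and 18.5 in Tomato- without the 3 libraries. Summed CPM ranged from 1998 to 2432 and 1898 to 2622 for initiation, 561 to 845 and 700.0 to 1318 for elongation, and 549 to 660.3 and 558 to 921 for eIF4E regulators (Tomato+ and Tomato-). With eIF5A counted as initiation, elongation summed to 373 and 643 CPM. By longest transcript, initiation factors summed to 1439 CPM per kb in place of 939. By counting error alone, a zero leaves room for up to 0.185 to 0.554 CPM, a limit that does not cover loss of a transcript before sequencing. Eif4ebp1, for example, had 0 counts in Tomato- replicate 1 and 1452 CPM in Tomato- replicate 2.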
